A study of Mus musculus with 8 samples.

Results

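Snhg9, Decr2, H2-Q7, Flywch1, Enpp5 and Arhgdig are 6 genes of mouse chromosome 17 whose RNA was lower in ear skin after epidermal loss of Cdsn, the gene of the cell-adhesion protein corneodesmosin. They were picked by name from the authors' deposited table, which lists 3411 of the 33793 measured probe sets, 159 of them on chromosome 17 and 51 of these lower. Each of the 6 genes has 1 probe set in that table. Because the genes were chosen for being lower in the same comparison, their differences are given as a description, without a test.

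Ear skin came from 4 mice with Cdsn inactivated in the epidermis (KO, KRT14-CreERT2(tg/0)/Cdsnfl/fl) and from 4 control mice (WT, KRT14-CreERT2(tg/0)/Cdsnwt/wt), and the labels give a C57B/6J background for both. All mice carried the tamoxifen-inducible recombinase, were 7 to 12 weeks old and had 100 µg of 4-hydroxytamoxifen put on each ear daily for up to 15 days, so the groups differed in the floxed alleles. The KRT14 promoter is active in basal keratinocytes, and the RNA was from whole ear skin, which also holds cells without an active recombinase. The labels do not say in which strain the floxed allele was made. Cdsn itself lies on chromosome 17. For every gene on that chromosome, alleles inherited together with the floxed Cdsn gene and the loss of Cdsn cannot be told apart in this design.

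The 6 genes act in unrelated processes. Snhg9 is a long noncoding RNA that hosts a small nucleolar RNA, and in the mouse small intestine its level is known to be lowered by the gut microbiota. Decr2 encodes a peroxisomal reductase needed to break down polyunsaturated fatty acids. H2-Q7 encodes a Qa-2 antigen, a nonclassical class I molecule of the major histocompatibility complex (MHC) that presents peptides. Flywch1 encodes a zinc finger protein whose human counterpart binds nuclear beta-catenin, Enpp5 a membrane-bound member of the ectonucleotide pyrophosphatase family, and Arhgdig a GDP-dissociation inhibitor, which keeps small GTPases inactive.

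Upstream sequences of 4 of the 6 genes are shown because these are the stretches next to the starts of genes that were low together. They are the 250 bases before each start, 5′ to 3′ on the gene's own strand, from RefSeq on GRCm38.p6. The windows are chr17:24719966-24720215 on the minus strand for Snhg9, chr17:26090165-26090414 on the minus strand for Decr2, chr17:35438905-35439154 on the plus strand for H2-Q7 and chr17:23771603-23771852 on the minus strand for Flywch1, the last being 1 of 2 windows listed for that gene. Capitals mark the motifs searched on both strands: the E-box CACGTG, the TATA box TATAAA, the CCAAT box CCAAT, the GC box GGGCGG, the kappa B letters GGGATTCCC and interferon element letters TTTCACTT of class I promoters, and the cyclic AMP element core TGACG.
Snhg9: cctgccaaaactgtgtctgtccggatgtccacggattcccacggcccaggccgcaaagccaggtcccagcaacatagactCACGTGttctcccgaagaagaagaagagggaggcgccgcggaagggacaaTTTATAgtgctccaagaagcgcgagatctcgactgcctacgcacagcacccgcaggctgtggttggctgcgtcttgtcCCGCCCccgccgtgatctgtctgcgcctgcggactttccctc
Decr2: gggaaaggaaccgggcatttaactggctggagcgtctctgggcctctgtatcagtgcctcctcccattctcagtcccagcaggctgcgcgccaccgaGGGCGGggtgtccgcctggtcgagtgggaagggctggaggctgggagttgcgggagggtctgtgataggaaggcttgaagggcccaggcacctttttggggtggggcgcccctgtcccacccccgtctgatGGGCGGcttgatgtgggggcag
H2-Q7: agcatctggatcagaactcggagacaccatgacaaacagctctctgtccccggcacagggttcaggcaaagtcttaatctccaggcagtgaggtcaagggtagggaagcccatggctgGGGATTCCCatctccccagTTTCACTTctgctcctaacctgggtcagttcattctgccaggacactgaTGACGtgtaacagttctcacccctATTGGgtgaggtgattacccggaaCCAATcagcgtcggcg
Flywch1: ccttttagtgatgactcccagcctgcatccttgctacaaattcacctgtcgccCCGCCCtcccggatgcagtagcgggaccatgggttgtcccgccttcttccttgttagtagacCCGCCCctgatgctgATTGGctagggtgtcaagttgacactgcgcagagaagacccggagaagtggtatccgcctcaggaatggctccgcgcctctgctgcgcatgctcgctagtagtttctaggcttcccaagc

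No motif was found in all 4 windows. The GC box was in those of Snhg9, Decr2 and Flywch1, and 32.7% of the 32851 promoter windows of the same length hold it. Snhg9 alone of the 4 had the E-box, held by 6.02% of all windows, and the TATA box letters, held by 12.4%. Its TATA box letters read on the opposite strand, 115 to 120 bases upstream of the start. The H2-Q7 window held the kappa B letters, present in 0.301% of all windows, the interferon letters, present in 1.36%, and TGACG, present in 17.8%. CCAAT occurred in the windows of H2-Q7 and Flywch1 and in 33.8% of all windows. None of these matches overlapped another. Matches are a description of letters and were not tested as binding sites. In RefSeq order by start position, Snhg9 comes after Rps2, a ribosomal protein gene read from the opposite strand, and before Snora78. Because the order uses starts only, a small nucleolar RNA gene listed next to its host can lie within it. The 300-base start windows of Snhg9 and Rps2 share 197 bases. Neither Rps2 nor Snora78 is in the deposited table.

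Values are log2 signals after RMA, with array medians of 5.52 to 5.59 in KO and 5.43 to 5.49 in WT. In KO, Cdsn read 10.31, 8.89, 9.82 and 9.49, and in WT it read 12.05, 11.76, 12.13 and 12.06, so the labels held on all arrays (log2 difference -2.37, SE 0.26, limma adjusted p = 0.00203; exact two-sided permutation p = 0.0286, the smallest that 4 against 4 arrays allow). Arrays stood apart within both groups on the first principal component, which held 50.4% of the variance. KO replicates 1 and 2 lay at -75.3 and -57.8 and KO replicates 3 and 4 at -4.47 and -6.84, while WT replicate 1 lay at 2.60, away from the other WT arrays at 43.5 to 50.5. In all, limma called 4428 probe sets at adjusted p under 0.05, 3350 higher and 1078 lower; after quantile normalization these were 1689 and 1751. Over all probe sets the KO minus WT difference had a median of 0.094 in the deposited values and of -0.021 after quantile normalization.

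Snhg9 was the gene with the largest fall in the table. Its KO values were 4.99, 4.93, 4.85 and 5.04, and its WT values 8.19, 7.90, 8.09 and 8.37. Both groups were tight, and the gap of 2.87 between the highest KO and the lowest WT array took up 81.4% of the whole range. KO averaged 4.95 ± 0.08 and WT 8.14 ± 0.20 (SD over 4 arrays), a log2 difference of -3.19 (SE 0.12), so the WT signal was 9.12 times the KO signal. Among the 834 lower entries of the table it ranked 1 by the size of the fall and 1 by the share of the range that the gap took up. In KO its mean lay below the KO array medians, and so did the KO means of H2-Q7 (5.36) and Arhgdig (5.48). No detection call was used for any gene. In whole skin, fewer cells of a type and less RNA per cell cannot be told apart.

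Decr2 came next, with the second largest fall of the 6. It read 8.24, 8.14, 8.51 and 8.38 in KO and 9.13, 9.53, 9.12 and 8.84 in WT. The groups did not overlap, although KO replicate 3 and WT replicate 4 were only 0.33 apart. KO averaged 8.32 ± 0.16 and WT 9.16 ± 0.28 (SD over 4 arrays), and the difference was -0.84 (SE 0.16), or 55.9% of the WT signal. Decr2 thereby ranked 214 of 834 by the size of its fall.

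H2-Q7 values in KO were close together at 5.36, 5.26, 5.46 and 5.37. Those in WT were spread, at 6.23, 5.64, 6.12 and 5.85. WT replicate 1 was the highest array for this gene and WT replicate 2 came nearest to KO, with a gap of 0.18. The means were 5.36 ± 0.08 and 5.96 ± 0.27 (SD, n = 4 each), a difference of -0.60 (SE 0.14) that became -0.51 without WT replicate 1. The probe set had 9 probes, the fewest of the 6. The table puts it in cross-hybridisation class 1, while class 3 marks those with probes that match further transcripts too. H2-Q7 has near-identical neighbours in the Q region, RefSeq lists Q9 among its synonyms, and whether its probes tell these copies apart was not tested.

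Flywch1 and Enpp5 differed by nearly the same amount. Flywch1 read 7.37, 7.15, 7.50 and 7.61 in KO and 7.78, 8.10, 8.07 and 8.02 in WT, a difference of -0.59 (SE 0.13). WT replicate 1 was the WT array nearest to KO for Flywch1, and without it the difference was -0.66. Enpp5 read 6.95, 7.30, 7.13 and 7.50 in KO and 7.77, 7.87, 7.90 and 7.66 in WT, a difference of -0.58 (SE 0.13). For Enpp5 the KO arrays were more spread (SD 0.24) than the WT arrays (SD 0.11). Neither gene's groups overlapped, with gaps of 0.17 and 0.16.

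Arhgdig had the smallest fall and the second clearest separation. Its KO values were 5.47, 5.41, 5.46 and 5.57 and its WT values 6.06, 5.87, 6.00 and 6.17. The difference was -0.55 (SE 0.10), with means of 5.48 ± 0.07 and 6.03 ± 0.13 (SD, n = 4 each), and the gap of 0.29 took up 38.4% of the range. By the size of its fall it ranked 729 of 834, just inside the log2 fold of 0.5 at which the authors' table ends. Probe sets just outside that fold carry no name here. The WT arrays ran in the same order for Arhgdig as for Snhg9, with replicate 2 lowest, then 3, 1 and 4.

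**Figure D1:**
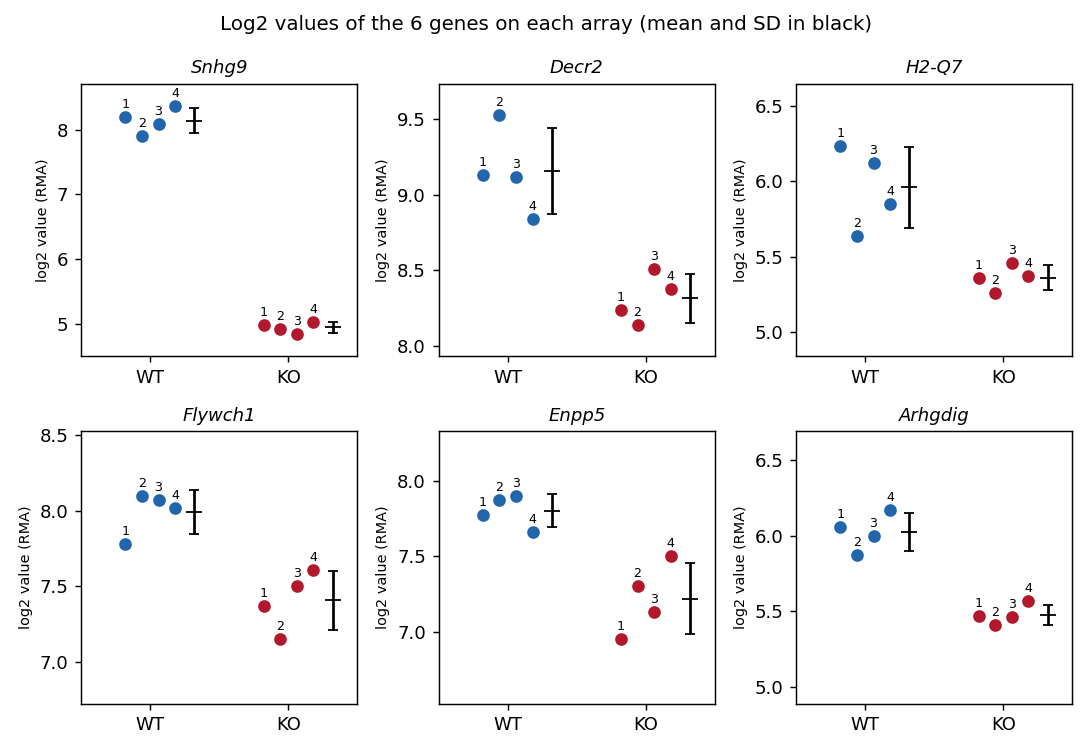
Log2 values after RMA (vertical axis) of the 6 genes on the 4 WT arrays (blue) and the 4 KO arrays (red), numbered by replicate; black bars are the mean and SD (n = 4), and the Snhg9 axis spans more log2 units than the others. No KO array reaches the WT range for any of the 6, with a gap of 2.87 for Snhg9 and of 0.16 to 0.33 for the others.

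All 6 genes had every KO value below every WT value, which the choice of the genes largely fixes: this held for 5.53% of all 33793 probe sets and for 97.0% of the 834 lower entries. Limma called 13.1% of all probe sets, 3.19% as lower in KO, and 2.47% were lower by at least 0.5 on the log2 scale as well. The median difference of the 6 genes was -0.59, against -0.69 for all 834 lower entries and -0.70 for the 51 on chromosome 17. Apart from Snhg9, the falls were thus of ordinary size for entries of this table. After quantile normalization the differences were -3.30 for Snhg9, -0.98 for Decr2, -0.70 for H2-Q7, -0.69 for Flywch1 and for Enpp5, and -0.65 for Arhgdig, each larger than in the deposited values.

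WT replicate 1 did not move the 6 genes together. Its place can be given as a percentage of the way from the mean of the other 3 WT arrays to the KO mean. That place was -2.09% for Snhg9, 3.30% for Decr2, 7.56% for Enpp5 and -7.53% for Arhgdig, so these genes were at the level of the other controls. For Flywch1 it was 43.4%, towards KO, and for H2-Q7 -70.4%, away from KO. The median was 0.602% over the 6 genes, 4.38% over the 834 lower entries and 9.27% over the 2577 higher entries. Without this array the differences were -3.17 for Snhg9, -0.85 for Decr2, -0.59 for Enpp5 and -0.54 for Arhgdig.

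With fewer arrays, some of the genes missed the criterion by which they had entered the table. With each of the 8 arrays left out in turn, Snhg9, Decr2 and Arhgdig met the adjusted p of 0.05 every time. The genes were chosen through this criterion and each fit reuses the remaining arrays, so meeting it again is no further support. H2-Q7 missed it in 5 of the 8 fits, without KO replicate 1, 2 or 4 or WT replicate 1 or 3, and Enpp5 in 5, without KO replicate 1, 2 or 3 or WT replicate 2 or 3. Flywch1 missed it in 4, without KO replicate 2 or WT replicate 2, 3 or 4.

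Within the groups the genes did not share one order of arrays. The KO pairs that lay apart on the first principal component, replicates 1 and 2 against 3 and 4, overlapped for Snhg9, Enpp5 and Arhgdig. For Decr2, Flywch1 and, narrowly, H2-Q7, replicates 1 and 2 were the lower KO arrays. KO replicate 2 was the lowest KO array for Decr2, H2-Q7, Flywch1 and Arhgdig, but not for Snhg9, where it was replicate 3, or Enpp5, where it was replicate 1. In WT, replicate 2 was the lowest for Snhg9, H2-Q7 and Arhgdig and the highest for Decr2 and Flywch1. Scaled so that each gene's WT mean is 0 and its KO mean is 1, the 8 arrays of Snhg9 stayed within -0.074 to 0.074 in WT and 0.973 to 1.03 in KO. Enpp5 ranged from 0.523 to 1.46 among its KO arrays. Scaling divides by each gene's own difference, so the large fall of Snhg9 by itself draws its arrays together. In log2 units its SD was 0.20 in WT and 0.08 in KO. The other genes had SDs of 0.11 to 0.28 in WT and 0.07 to 0.24 in KO.

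**Figure D2:**
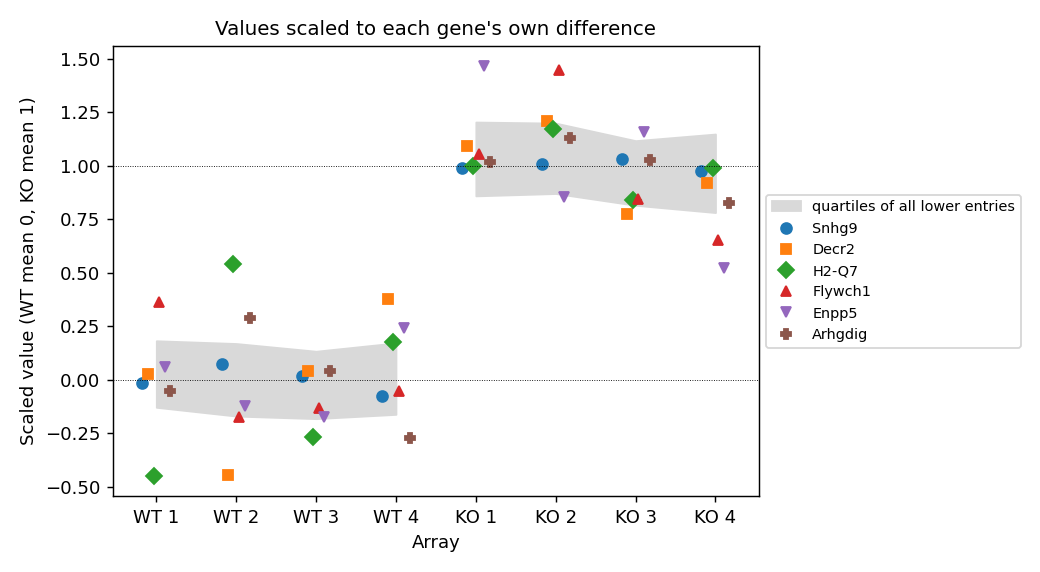
Values of the 6 genes on each array (horizontal axis), scaled so that the WT mean is 0 and the KO mean is 1 (vertical axis, no unit); grey bands run from the first to the third quartile of the 834 lower entries. Snhg9 lies close to 0 in WT and close to 1 in KO on every array, while each of the other 5 genes leaves the band on some arrays. The scaling divides by each gene's own difference, which is largest for Snhg9.

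The profile most like that of Snhg9, among 764 other lower genes with a name, was that of the predicted gene Gm22575 on chromosome 3. Likeness was the root mean square difference between scaled values over the 8 arrays, and it was 0.043 for Gm22575. Its KO arrays lay between 2.58 and 2.82 and its WT arrays between 4.43 and 4.74, and its probe set was of class 3. Next came Dut on chromosome 2, which encodes the enzyme that clears dUTP (0.062), 4930571N24Rik on chromosome 15 (0.065), the pseudogene AA619741 on chromosome 1 (0.066) and 4933428M09Rik on chromosome X (0.070). None of these 5 lies on chromosome 17, which holds only 51 of the 834 lower entries, so nothing is read from this. Values were divided by each gene's own difference. A gene whose fall is small beside its spread therefore scores as less like Snhg9, wherever it lies. All of them read under 5 on the log2 scale on every array. Arhgdig was at 0.125, with 65 of the 764 genes closer to Snhg9, and Flywch1, Decr2, H2-Q7 and Enpp5 were at 0.266 to 0.284, where the median of the 764 was 0.248.

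Of the 6 genes, 5 lie on the same side of Cdsn in RefSeq gene order. Of the 159 chromosome 17 entries, 131 could be placed in that order, 107 through their accession, 23 through the current symbol and 1 through a synonym. H2-Q7 is close to Cdsn, with 7 genes between them. Arhgdig and Decr2 follow on that side with 417 and 425 genes between, then Snhg9 with 516 and Flywch1 with 583, and Enpp5 lies on the other side with 242 genes between. Decr2 and Arhgdig are neighbours in the table, with 7 genes between them. On the side of Snhg9, placed lower entries numbered 9 within 500 genes of Cdsn, 16 at 501 to 1000 and 0 farther out. On the other side they numbered 9 within 500 genes and 7 farther out. The 6 genes were picked by name, and nothing is read from their sides. RefSeq start positions were used for the order alone, and distances from Cdsn in bases were not computed.

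The table's nearest placed entries to the 6 genes ran in both directions. They are not adjacent genes. Between Snhg9 and its nearest entries lie 24 and 35 genes, and between Enpp5 and its nearest entries 33 and 40. For Flywch1 it is 3 and 4. Capn15 has 3 genes between it and Decr2, and Gm20026 has 4 between it and Arhgdig. Beside Snhg9 came Dnase1l2, a DNase gene of cornifying keratinocytes, at 1.42 (SE 0.27, limma adjusted p = 0.0125), and Gm17801 at -0.59 (adjusted p = 0.0293). On the far side of Decr2 and of Arhgdig came the calpain gene Capn15 at 0.56 (adjusted p = 0.0361) and the pseudogene Gm20026 at -0.69 (adjusted p = 0.00721, class 3). Flywch1 stood between the cell cycle kinase gene Pkmyt1 at -0.54 (adjusted p = 0.0424) and the elongin B gene Tceb2 at 1.02 (adjusted p = 0.0122). Enpp5 stood between Crisp2, which encodes a protein of sperm, at 0.61 (adjusted p = 0.0231), and the vascular growth factor gene Vegfa at 0.89 (adjusted p = 0.0199). Of these, Pkmyt1 lost its call with each of the 8 arrays left out in turn, Gm17801 and Capn15 with 7 of them, Crisp2 with 5 and Vegfa with 2, KO replicate 2 and WT replicate 2 (largest adjusted p 0.0908); after quantile normalization the adjusted p was 0.0802 for Capn15 and 0.0606 for Crisp2.

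The largest other falls on chromosome 17 were smaller than those of Snhg9 and Cdsn. They were the zinc finger gene Zfp947 at -1.41 (SE 0.19, adjusted p = 0.00420), Gm7072 at -1.04, BC033916 at -1.04, 2700099C18Rik at -1.03 and Cd70, which encodes a ligand of the T cell costimulatory receptor CD27, at -0.96. The largest rise was that of Tpsab1, a mast cell tryptase gene, which read 9.91, 10.05, 9.00 and 8.56 in KO and 5.17, 4.91, 5.09 and 5.16 in WT (log2 difference 4.30, SE 0.31, limma adjusted p = 0.000698). C57BL/6 mice are known to carry a splice-site variant that inactivates Tpsab1, and RefSeq, built on that strain, lists the gene as a transcribed pseudogene. Whether inherited alleles have a part in the Tpsab1 values was not tested. For Tpsab1, WT replicate 1 lay 2.76% of the way from the other WT arrays to KO. The median of the 2577 higher entries was 9.27%. Then came the olfactory receptor gene Olfr91 at 1.77, the tryptase gene Tpsb2 at 1.52, the dynein light chain gene Dynlt1f at 1.49 (class 3) and 2300002M23Rik at 1.44, which has 1 gene between it and Cdsn. Leaving out arrays one at a time ended the call of Tpsb2 in 5 of 8 cases (largest adjusted p 0.0762).

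Of the 159 entries on chromosome 17, 32.1% were lower, against 24.1% of the 3252 entries on other chromosomes. Among the 19 autosomes that share ranked 2, after chromosome 16 at 35.8% and just before chromosome 1 at 31.5%. By place, the lower share was 43.2% of the 37 entries that lie 501 to 1000 genes from Cdsn on the side of Snhg9, 23.7% of the 38 within 500 genes on that side, 26.5% of the 34 within 500 genes on the other side and 41.2% of the 17 farther out there. The 4 entries at the far end on the side of Snhg9 were all higher. These shares describe entries the authors chose as changed, and the number of probe sets measured on each chromosome is not given in the table.

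**Figure D3:**
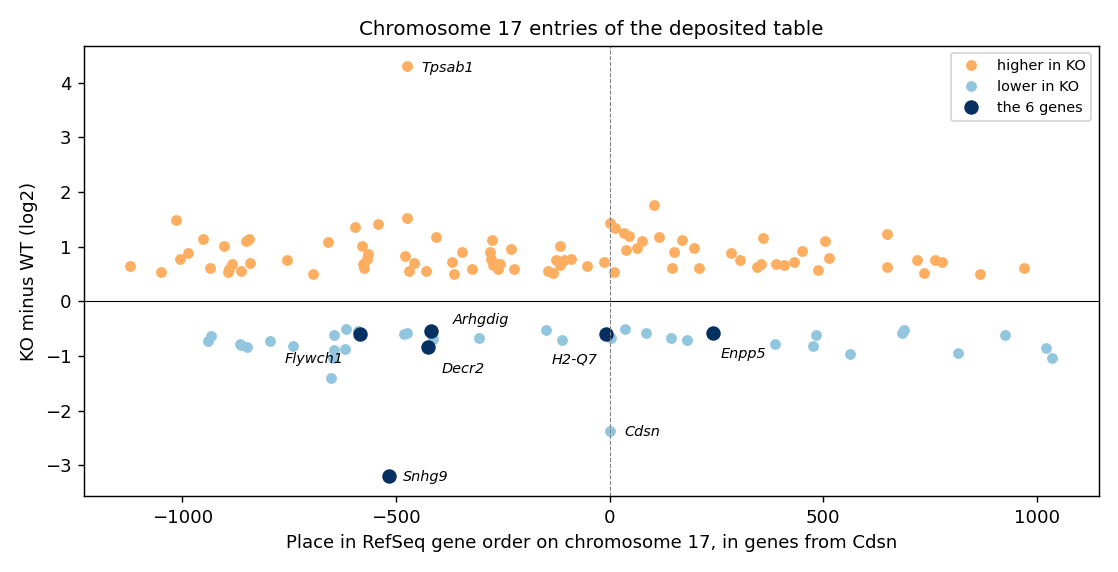
Log2 difference KO minus WT (vertical axis) of the 131 chromosome 17 entries that could be placed, against place in RefSeq gene order counted in genes from Cdsn (horizontal axis, dashed line at Cdsn); dark points are the 6 genes. Snhg9 at -3.19 and Tpsab1 at 4.30 lie on the same side of Cdsn, and lower entries are mixed with higher ones along the chromosome.

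Class I MHC genes, to which H2-Q7 belongs, went in both directions in the table. Of all 3411 entries of the table, 2577 were higher and 834 lower, so nothing is read from the split among class I genes. Of 26 genes for class I molecules and peptide loading, 4 were higher (15.4%) and 1 was lower (3.85%), where 7.63% of all probe sets met the table's criteria as higher and 2.47% as lower. H2-T24 rose by 1.25 (SE 0.26, limma adjusted p = 0.0175), H2-T10 by 1.19 (SE 0.19, adjusted p = 0.00705), H2-Q5 by 0.73 (SE 0.14, adjusted p = 0.0147) and H2-K1, a classical molecule present on most cells, by 0.56 (SE 0.12, adjusted p = 0.0202). RefSeq lists H2-T10 and H2-Q5 as transcribed pseudogenes, and the probe set of H2-T10 had only 8 probes. H2-T23, which encodes the Qa-1 ligand of the inhibitory CD94-NKG2A receptor, fell by 0.50 (SE 0.12, adjusted p = 0.0259). H2-Q5 is the table's nearest entry to H2-Q7, with 3 genes between them, and it read 5.63, 5.51, 5.65 and 5.70 in KO and 4.92, 4.53, 4.92 and 5.21 in WT. The other 21 genes of the list, B2m and the Tap genes among them, are not in the table and so have no value here.

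The single class I calls differed in stability. H2-K1 missed the threshold after quantile normalization (adjusted p = 0.0770) and without WT replicate 3 (0.0550), and H2-T24 missed it without KO replicate 2 (0.0517). H2-T23 missed it on leaving out KO replicate 2 or 4 or WT replicate 1, 2 or 3, at 0.0566 to 0.0695. H2-Q5 and H2-T10, both listed as transcribed pseudogenes, stayed called on all of these settings. H2-M1 and H2-M10.3, which were not on the list and were singled out after their values were seen, were higher by 1.11 and 0.97. Of 11 listed class II genes, H2-DMb1, a peptide-loading chaperone gene, rose by 0.76 (SE 0.15, adjusted p = 0.0144) and 0 fell. The higher share of 9.09% was near the 7.63% of all probe sets. H2-Eb2 and the pseudogene H2-Ea-ps, also class II, were higher by 0.66 and 1.01. They were not on the list and were singled out after their values were seen.

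**Figure D4:**
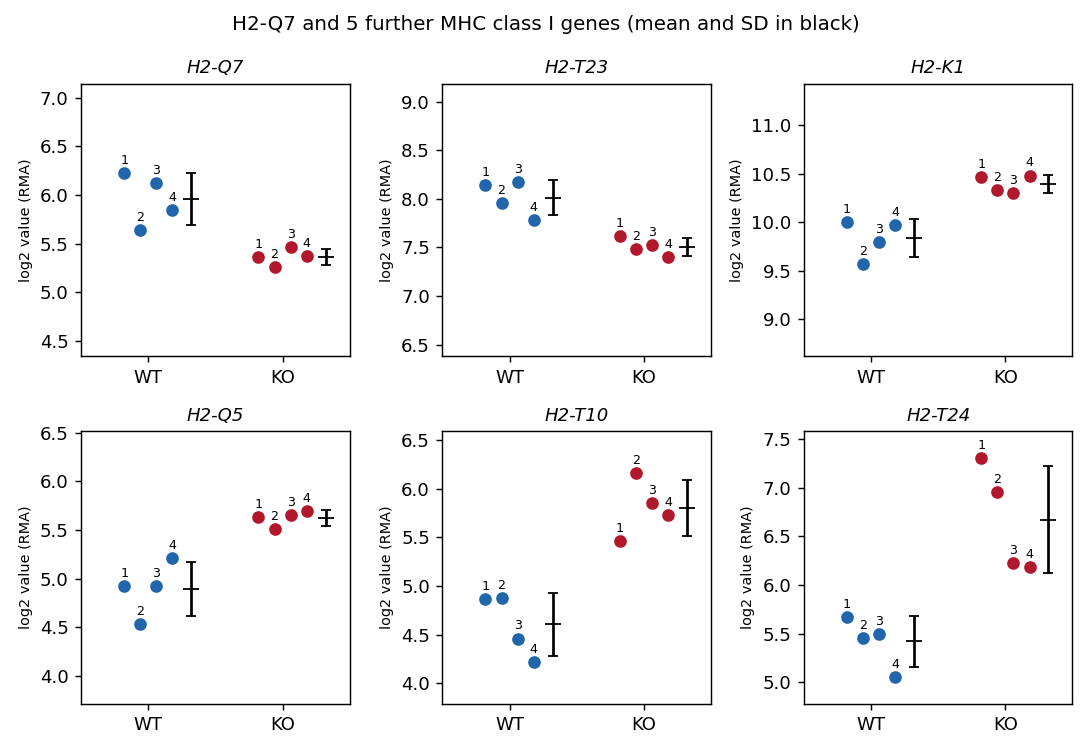
Log2 values after RMA (vertical axis) of H2-Q7 and 5 further class I genes on the 4 WT arrays (blue) and 4 KO arrays (red), numbered by replicate; black bars are the mean and SD (n = 4). H2-Q7 and H2-T23 are lower in KO, while H2-K1, H2-Q5, H2-T10 and H2-T24 are higher, and no panel's groups overlap. The choice of genes from the authors' table largely fixes this separation. Of all probe sets, 15.9% had every KO value above every WT value and 5.53% had every KO value below.

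Of 53 relatives of Snhg9, Decr2, Enpp5 and Flywch1, 1 was in the table (1.89%), which holds 10.1% of all probe sets, 7.63% as higher and 2.47% as lower. Of 22 small nucleolar RNA host genes and partners, 1 was in it: Dancr, a host gene on chromosome 5, rose by 0.51 (SE 0.13, adjusted p = 0.0337), from 5.37 to 5.85 over the WT arrays to 5.94 to 6.30 over the KO arrays. It lost the call after quantile normalization (adjusted p = 0.0885) and on leaving out 6 of the 8 arrays singly (at most 0.0818). Of 24 genes for peroxisomal and auxiliary beta-oxidation, the pathway of Decr2, 0 were listed. None of the 6 other ectonucleotide pyrophosphatases was listed, and nor was Flywch2, which lies next to Flywch1 in RefSeq order. A gene outside the table either missed the authors' criteria or had no named probe set, and these cannot be told apart.

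Of 76 markers for 9 kinds of cells of ear skin, 7 were in the table (9.21%), near the 10.1% of all probe sets that are in it. Of 12 keratinocyte markers, Krt1 rose by 1.88, Ivl by 1.10 and Dsc1 by 0.60, of 14 leukocyte markers Ly6g rose by 2.77 and Cxcr2 by 2.53, and of 6 endothelial markers Cdh5 rose by 0.60. Of 10 striated muscle markers Mylk4 fell by 1.70. Each of these 7 markers lost its call on leaving out 4 to 7 of the arrays singly (largest adjusted p 0.122). No marker of sebaceous gland, melanocytes, fibroblasts, cartilage or adipocytes was in the table, and markers outside it have no name here, so no summed level per cell type could be given. Ly6g, a neutrophil marker, read 7.91 and 7.93 on KO replicates 1 and 2, 4.72 and 4.62 on KO replicates 3 and 4, and 3.05 to 4.12 in WT. WT replicate 1 read 12.56 for Krt1, against at most 10.91 in the other WT arrays. The part of changed cell numbers in the falls of the 6 genes was not tested.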

How the data were processed

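Ear skin of 4 KO and 4 WT mice was measured, each on its own Affymetrix Gene Mouse 2.0 ST array, per the file headers and labels. Log2 values per probe set were deposited by the authors, who used RMA according to the submitters' processing notes; version and options are not given in the sources used here. Their second deposited file lists the probe sets that passed an adjusted p of 0.05 and a log2 change of 0.5 in size, with mean log2 values, a linear fold ratio, p-values, gene symbols, chromosomes and other probe set annotation. The genome build behind it is not given. No value was rescaled. KO minus WT was tested with limma (version 3.58.1, R 4.3.3) over the 33793 probe sets, two-sided and with Benjamini-Hochberg adjustment; the code was tested on simulated data. Log2 differences matched those of the table to within 5.91e-09. SEs are limma's. The number of arrays limits the precision. Gene names come from the table alone, so other probe sets have none; genes with several probe sets are shown by the one of highest mean. Gene order and upstream sequences come from RefSeq (GRCm38.p6). The 6 genes, the gene lists and the naming rule (the 6 genes, Cdsn, the 5 largest other falls and rises on chromosome 17, nearest entries, up to 4 called members per list, and the 5 profiles most like Snhg9) were chosen with earlier results of these data known. Alternatives were quantile normalization, median centring, leaving out dim probe sets or single arrays, a trend or no moderation, a replicate block and group medians. A few results of the gene lists are not reported here. Python 3.11.15 with scipy 1.17.1 was also used.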

Additional observations from a re-analysis of the deposited data

How the results depend on the processing

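The falls of the 6 genes kept their direction under every alternative run, while H2-Q7, Flywch1 and Enpp5 missed the table's adjusted p of 0.05 with 5, 4 and 5 of the 8 arrays left out singly. With single arrays left out they ranged from -3.27 to -3.11 for Snhg9, -0.94 to -0.71 for Decr2, -0.70 to -0.51 for H2-Q7, -0.66 to -0.50 for Flywch1, -0.68 to -0.49 for Enpp5 and -0.60 to -0.50 for Arhgdig. Only that of Arhgdig moved by more than 1 SD between replicates, to -0.65 after quantile normalization. Cdsn stayed called under each alternative run for it, with differences of -2.60 to -2.13 when single arrays were left out. The count of called probe sets, 4428, was 718 with dim probe sets left out, where 16896 were tested, and 2161 to 3504 with single arrays left out: the lowest counts were 2161 for KO replicate 2 and 2751 for KO replicate 1, and 2281, 2335 and 2883 for WT replicates 2, 3 and 4, where fewer arrays were fitted. Higher calls were 75.7% of all in the deposited values, 49.1% with quantile normalization and 53.2% with median centring. With the replicate number as a block, 5150 were called. Deviations of same-numbered arrays correlated at 0.548, -0.062, 0.276 and 0.304, and were not set against those of differently numbered arrays. These values do not decide whether the numbers pair the mice, and the main fit used no block. Averaging the probe sets of a gene was not run, because each of the 6 has 1 in the table.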

Other observations

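Of 7 chromosome 17 entries with the Zfp symbol of zinc finger genes, 6 were lower and 1 was higher, where 32.1% of all entries on that chromosome and 24.5% of all entries of the table were lower. These genes encode DNA-binding proteins, many of them with a repressor domain. Zfp947 fell by 1.41, Zfp944 by 0.88, Zfp40 by 0.87, Zfp960 by 0.73 (class 3), Zfp758 by 0.62 and Zfp959 by 0.62, and Zfp943 rose by 1.09. The KO and WT values overlapped for Zfp40 and for none of the others, and Zfp40 lost its call with 7 of the 8 arrays left out singly (largest adjusted p 0.0911). The group was picked out after the values were seen, so no test is given for it and nothing is read from its share.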
